A study of Homo sapiens with 8 samples.

Results

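The core histone genes of the histone clusters were examined in RNA-seq of the human embryonic stem cell (hESC) line H9. Members were all genes whose older symbol starts with HIST1H2, HIST1H3, HIST1H4, HIST2H, HIST3H or HIST4H, with pseudogenes and linker histone H1 genes left out. Of 64 such protein-coding genes in RefSeq, 30 could be matched by gene ID among the 57773 genes counted: 9 H2A, 10 H2B, 6 H3 and 5 H4 genes. The other 34 are not analysed here. The 30 members lie in the HIST1 cluster on chromosome 6 (18 genes), the HIST2 cluster (8 genes) and the HIST3 cluster (3 genes) on chromosome 1, and at HIST4 on chromosome 12 (1 gene). The 8 libraries form 4 groups with 2 replicates each. WT cells were untreated and carry wild-type CHD7 with an HA tag (CHD7-HA), and CHD7 knockout cells (CHD7 -/-) were untreated. HERVH knockdown cells had the same CHD7-HA genotype as WT and were treated with LNA-GapmeRs, antisense oligonucleotides delivered by lipofection, for 24 h. HERVH element deleted cells were untreated and lack a HERVH element on chromosome 2. The labels also name a treatment with 4-thiouridine without saying which libraries received it. In the paper, 4-thiouridine is described for the crosslinking of RNA to CHD7 (PAR-CLIP) and not for RNA-seq. Edited lines were grown from picked colonies. The paper describes 2 independent clones each for the CHD7 knockout and the HERVH deletion, but does not link them to the RNA-seq replicates. Neither the labels nor the methods say how many clones or cultures gave the replicates, so the spread between replicates may be technical. The knockdown has no library with a control GapmeR, so transfection and loss of HERVH RNA cannot be told apart in its comparison with WT.

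Core histones H2A, H2B, H3 and H4 form the octamer around which DNA is wrapped in the nucleosome, and linker histone H1 binds outside it. Most core histone protein of dividing cells comes from clustered genes without introns that are transcribed in S phase at nuclear bodies organized by NPAT. Their mRNAs are special in that they usually end in a conserved stem-loop rather than a poly(A) tail: SLBP binds the stem-loop, and the U7 snRNP directs the cut just downstream of it. Some clustered genes can in addition produce longer polyadenylated mRNAs from sites further downstream. Because the libraries were made by depletion of ribosomal RNA, both kinds of mRNA could be sequenced. HERVH is a family of endogenous retroviruses transcribed in hESCs as long noncoding RNA, and CHD7 is an ATP-dependent chromatin remodeler.

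The stem-loop was found after the stop codon of all 30 members, at a distance of 22 to 67 bases (median 39), so it is shown first as the feature that members share. Each line gives 5 bases of flank, the 16-base stem-loop in capitals and 5 bases of flank, as DNA from the GRCh37 genome read 5′ to 3′ on the strand of the gene. The 4 H2B genes that were lower under HERVH knockdown at an FDR below 0.05 come first, then the H2A genes with a variant of their own, then an H3 and an H4 gene.
H2BC5 (HIST1H2BD): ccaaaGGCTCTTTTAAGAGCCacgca
H2BC18 (HIST2H2BF): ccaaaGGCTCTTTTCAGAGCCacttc
H2BC21 (HIST2H2BE): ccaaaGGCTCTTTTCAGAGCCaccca
H2BC11 (HIST1H2BJ): ctaacGGCTCTTTTAAGAGCCaccca
H2AC11 (HIST1H2AG): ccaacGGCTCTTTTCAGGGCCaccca
H2AC20 (HIST2H2AC): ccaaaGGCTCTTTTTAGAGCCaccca
H3C15 (HIST2H3A): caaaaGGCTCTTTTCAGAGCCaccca
H4C3 (HIST1H4C): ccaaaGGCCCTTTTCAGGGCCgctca
The 16-base stem-loop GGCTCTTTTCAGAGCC occurred in 17 members of types H2A, H2B and H3, and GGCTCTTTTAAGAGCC in 6. All 5 H4 members carried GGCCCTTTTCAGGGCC. H2AC11 and H2AC20 each had a form of their own. The 4 knockdown-lowered H2B genes were split between the first pair of variants, with H2BC18 and H2BC21 carrying the former and H2BC5 and H2BC11 the latter.

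Members differed in where the annotated transcript ends. In the GENCODE annotation lifted to GRCh37, 17 members end 3 to 8 bases after the stem-loop, and 13 have at least 1 transcript that ends 285 to 37155 bases after it. The long ends belong to 7 H2B, 4 H2A and 2 H4 genes and to none of the 6 H3 genes. H2BC5, at chr6:26158350-26171577 on the plus strand, has an annotated end 12747 bases past its stem-loop. H2BC18, at chr1:149754245-149783928 on the minus strand, extends 29195 bases past it. H2BC21 at chr1:149856009-149858232 (minus strand) extends 1729 bases and H2BC11 at chr6:27093676-27100574 (minus strand) extends 6424 bases. All 4 of these H2B genes therefore have an annotated form beyond the stem-loop.

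Among members, 12 are arranged as 6 pairs of an H2A and an H2B gene that start 214 to 247 bases apart and are transcribed in opposite directions. Such a pair shares most of a promoter. The promoter of H2BC21, which is shared with H2AC20, is shown from 250 bases before to 50 bases after the gene start (RefSeq, GRCh38.p14, chr1:149886633-149886932, minus strand), together with that of H2BC5 (chr6:26157871-26158170, plus strand), the member with the largest decrease under knockdown. Capitals mark the CCAAT box, the TATA box as TATAAA, and the octamer ATTTGCAT, on either strand.
H2BC21 promoter: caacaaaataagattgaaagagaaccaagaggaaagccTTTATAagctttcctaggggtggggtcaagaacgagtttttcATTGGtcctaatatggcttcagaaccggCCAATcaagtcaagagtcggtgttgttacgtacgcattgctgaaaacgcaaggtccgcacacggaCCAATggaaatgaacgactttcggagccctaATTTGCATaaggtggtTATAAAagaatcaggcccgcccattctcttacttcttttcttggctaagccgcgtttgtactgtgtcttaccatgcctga
H2BC5 promoter: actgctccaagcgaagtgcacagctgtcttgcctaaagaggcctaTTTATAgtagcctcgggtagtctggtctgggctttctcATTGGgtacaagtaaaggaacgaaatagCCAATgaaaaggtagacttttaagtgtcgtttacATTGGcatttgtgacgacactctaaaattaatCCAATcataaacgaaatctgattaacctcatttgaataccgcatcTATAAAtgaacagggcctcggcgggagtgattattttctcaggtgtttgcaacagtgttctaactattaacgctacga
A promoter entry was available for 28 members. CCAAT occurred in 24 of these 28 windows (85.7%, against 34.6% of all 35116 promoters of the same length), TATAAA in 21 (75% against 11.5%) and ATTTGCAT in 13 (46.4% against 1.77%). Paired genes share windows, and the windows listed for H3C4 and H2AC7 are identical, so these are not independent promoters. The octamer was present in windows of 6 H2A, 6 H2B and 1 H3 gene. That H3 gene is H3C4, so its octamer is the one already counted for H2AC7. The 4 H4 windows contained neither CCAAT nor the octamer. H2BC21 holds the octamer and H2BC5 does not, although both were lower in the knockdown.

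Between 14802049 and 23156445 reads per library fell on genes. As a check of the knockout label, CHD7 itself had 651 and 650 CPM (counts scaled to library size by TMM) in the WT libraries. Both libraries labelled CHD7 knockout had 197 CPM (log2 fold change -1.72, with an SE of 0.144 and an FDR of 2.25e-05 by edgeR). The 7 pluripotency markers summed to 5000 to 6140 CPM in every library, while neuroectoderm markers summed to at most 3.42, mesoderm to 2.48 and endoderm to 12.1 CPM. Within the endoderm list FOXA2 varied most, with 1.39 and 4.96 CPM in WT. It was at 0.324 and 0.699 in the CHD7 knockout, and at 10.3 and 9.69 in the knockdown. AFP was at 0.554 and 0.655 CPM in WT, 1.57 and 0.699 in the CHD7 knockout, and 1.81 and 2.11 in the knockdown. GATA6 and SOX17 had at most 4 reads. The part of cells with such markers in the results below was not tested. The 3 markers taken for fibroblasts, which are not specific to them, summed to 358 to 674 CPM. The knockdown replicates stood further apart than those of any other group. The median SD of member log2 CPM between replicates was 0.628 there, against 0.131 in WT, 0.137 in the CHD7 knockout and 0.101 in HERVH element deleted cells. Across genes, the difference between the knockdown replicates followed exonic GC content (Spearman rho 0.718 over 12704 genes, 0.515 over 27 members). Between replicates of the other groups, rho over the 12704 genes was 0.425 in WT, 0.348 in HERVH element deleted cells and -0.126 in the CHD7 knockout.

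Core histone genes took 0.356% and 0.353% of gene reads in WT, with Wilson intervals for counting error (95%) no wider than 0.00283 percentage points to either side in any library. The share reached 0.391% and 0.367% after loss of CHD7, 0.361% and 0.335% in HERVH element deleted cells, and 0.243% and 0.31% in HERVH knockdown cells. The knockdown libraries had the lowest shares of the 8. With TMM scaling, the summed levels were 3570 and 3510 CPM in WT and 2370 and 3340 in the knockdown. HERVH element deleted replicate 2, at 3290 CPM, then lay below knockdown replicate 2. H2B genes held the largest part of the core histone reads in WT (50.4% and 47%). H2A (20.7% and 23.1%) and H4 (20.4% and 21.1%) overlapped, and H3 was lower (8.47% and 8.76%). These shares depend on which members were matched and on the longer H2B transcripts.

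Per kilobase of annotated exon, the levels of members in WT ranged from 1.58 (H3-4) to 485 RPKM (H4C3) among tested genes. Among H2A genes, H2AC11 (HIST1H2AG) was highest with 439 and 504 RPKM, followed by H2AC20 (HIST2H2AC) with 333 and 376 and H2AC13 (HIST1H2AI) with 218 and 254. H2AC21 (HIST2H2AB; mean 93.9 RPKM) stood above H2AC6 (HIST1H2AC; 84.2 and 74.7) and H2AC25 (HIST3H2A; 28.2 and 39.2), and H2AC18 (HIST2H2AA3) was far lower with 8.72 and 7.83. None of these neighbors in the H2A order overlapped in its WT values, but the order changes with the length used, as given below. For H2B, H2BC12 (HIST1H2BK) gave 373 and 374 RPKM and H2BC5 399 and 300, so their order was not resolved. H2BC13 (HIST1H2BL; 261 and 243) and H2BC18 (222 and 205) came next, then H2BC11 (104 and 107). H2BC21 (89.0 and 85.6) and H2BC4 (HIST1H2BC; 90.1 and 84.2) overlapped, and H2BC15 (HIST1H2BN; 33.8 and 27.6) and H2BC26 (HIST3H2BB; 8.54 and 13.1) were lower.

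Of the H3 genes, H3C13 (HIST2H3D) had 202 and 267 RPKM and H3C4 (HIST1H3D) 182 and 201, with H3C12 (HIST1H3J) at 122 and 81.9. H4C3 (HIST1H4C) led the H4 genes with 528 and 441 RPKM, ahead of H4C2 (HIST1H4B; 330 and 398) and H4C8 (HIST1H4H; 125 and 131). H4C16 (HIST4H4; mean 47.0) and H4C11 (HIST1H4J; 47.6 and 30.7) overlapped. The order rests on the length used. Lengths come from the GENCODE annotation lifted to GRCh37, which may differ from the Ensembl GRCh37.75 models on which reads were counted. Divided by the shortest annotated transcript instead of all exons, H2BC18 moved from rank 4 to rank 1 of H2B with a mean of 942 RPKM, and H4C8 passed H4C3 with 678 against 485. Among H2A genes, H2AC6 moved from rank 5 to rank 3 with 255 RPKM, and H2AC25 passed H2AC21 with 122 against 93.9.

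**Figure D1:**
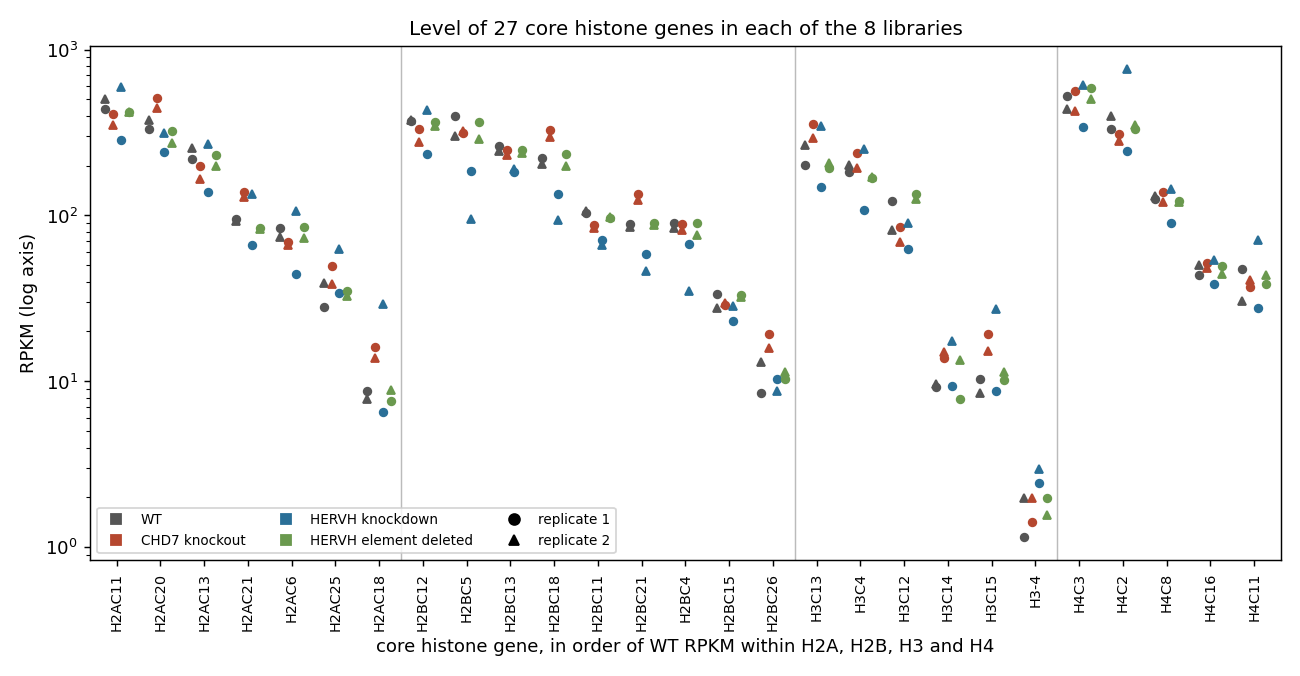
RPKM (log axis) of the 27 members that passed the filter on low counts, in all 8 libraries, grouped by histone type and ordered by WT level. Each point is 1 library. The H2B genes H2BC5, H2BC18, H2BC21 and H2BC11 show both knockdown points below all others, as do H2BC4 and H2BC13, which had no call. Many H2A, H3 and H4 genes have 1 knockdown point below and 1 above WT.

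Near-identical and tissue-restricted members were low. H3C14 (HIST2H3C) and H3C15 (HIST2H3A) share 99.2% and 100% of their 50-base sequences with each other, so reads could be lost or split between them, and their WT values of 9.29 and 9.59 RPKM (H3C14) and 10.3 and 8.49 RPKM (H3C15) are uncertain. H2AC18 shares 52.4% with its copy H2AC19 (HIST2H2AA4), which is not analysed here, and its level of 117 to 389 reads per library is uncertain as well. H4C11 shares 92.1% with H4C12, H3C13 78.3% with other genes, H2AC13 63.5% and H2BC12 57.2%, and their counts are uncertain to that extent. H3-4 (HIST3H3), which encodes the testis H3 variant, had 13 to 24 reads per library. H2AC1 (HIST1H2AA) had 0 to 3 reads and H2BC1 (HIST1H2BA), its testis-expressed partner, 0 to 2. H2AC7 (HIST1H2AD) also had 0 to 3 reads, and the RefSeq model of H3C4 covers it, so its reads may have been discarded as ambiguous. A floor of 3 reads equals 0.128 to 0.218 CPM in these libraries, so H2AC1, H2BC1 and H2AC7 were not detectable at this depth or lay at that limit. These 3 genes failed the filter, and the other 27 members were tested among 23474 genes.

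Of the 27 tested members, 4 were lower in HERVH knockdown cells than in WT at an FDR below 0.05 (edgeR quasi-likelihood test, Benjamini-Hochberg adjustment over 23474 genes), against 2.15% of all genes called in either direction and 1.53% called lower. None was higher, as 0.618% of all genes were. All 4 encode H2B: H2BC5, H2BC18, H2BC21 and H2BC11. None reached the DEG threshold of an FDR below 0.01 and a fold change of at least 2, which 0.217% of all genes passed. At an unadjusted p below 0.05 there were 8 members (19% of all genes), 6 of them lower, and DESeq2, edgeR's exact test and its likelihood-ratio test each called 1 DEG. The knockdown calls depended on the libraries in the fit. Without knockdown replicate 1 the median log2 fold change of the 27 members was 0.159, and without replicate 2 it was -0.521. Numbers of members below an FDR of 0.05 in other fits follow. For them and for the alternative tests above, the share of all genes called is not given here. The number was 4 by DESeq2, and 5 by edgeR's exact test, its likelihood-ratio test or with replicate number as a block. It was 6 without an expression filter and 8 with that block and an offset for GC content. The number fell when any 1 WT, CHD7 knockout or HERVH element deleted library was left out. It rose when either knockdown library was left out. With only the 4 libraries compared, it was 0, with FDRs of 0.078 for H2BC5 and 0.12 for H2BC18, where the CHD7 knockout treated in the same way gave 7 members. No difference between comparisons or between histone types was tested. The H2B median stayed between -0.713 and -0.582 when single libraries were left out, and that of all 27 members between -0.521 and 0.159.

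H2BC5 was measured at 343 and 258 CPM in WT, 159 and 81.6 in HERVH knockdown cells, 272 and 276 in CHD7 knockout cells, and 314 and 248 in HERVH element deleted cells. Both knockdown values lay below the other 6. Its log2 fold change in the knockdown was -1.32 (SE 0.252, FDR 0.0206), the largest decrease among members. H2BC18 gave 399 and 368 CPM in WT and 241 and 168 in the knockdown, with 590 and 537 in the CHD7 knockout and 421 and 358 after deletion of the HERVH element. Here the knockdown libraries were the lowest and the CHD7 knockout libraries the highest of the 8. The knockdown change was -0.91 (SE 0.175, FDR 0.0213). H2BC21 followed the same order with 198 and 190 CPM in WT, 130 and 103 in the knockdown, 299 and 275 in the CHD7 knockout and 202 and 195 in HERVH element deleted cells. Its log2 fold change in the knockdown was -0.73 (SE 0.151, FDR 0.027). For H2BC11, values were 109 and 112 CPM in WT, 74.0 and 69.7 in the knockdown, 91.2 and 87.8 in the CHD7 knockout, and 101 and 103 after deletion. The knockdown values did not overlap those of any other group, with a log2 fold change of -0.62 (SE 0.144, FDR 0.0421).

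The remaining 5 tested H2B genes had lower fitted levels as well, without passing the test. H2BC4 was at 259 and 242 CPM in WT and at 195 and 101 in the knockdown, below WT in both libraries but far apart between them (log2 fold change -0.76, FDR 0.105). H2BC13 was at 118 and 110 CPM in WT and 83.1 and 85.5 in the knockdown, also without overlap (-0.43, FDR 0.132). H2BC15 (-0.26), H2BC12 (-0.17) and H2BC26 (-0.17) overlapped WT, and H2BC12 was at 116 CPM in the first and 213 in the second knockdown library against 185 in both WT libraries. So 6 of 9 H2B genes lay below both WT values in both knockdown libraries, where 22.3% of all tested genes did. The median log2 fold change of the 9 H2B genes was -0.617, with medians of -0.574 and -0.661 in replicates 1 and 2. Over all genes tested the median was 0.036.

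Other histone types gave no call. Median log2 fold changes in the knockdown were -0.085 for 7 H2A genes, 0.283 for 6 H3 genes and -0.011 for 5 H4 genes, and replicates 1 and 2 disagreed in sign for each of these types. These medians join libraries that moved in opposite directions. In knockdown replicate 1, 25 of 27 members were below the WT mean, with medians of -0.56 for H2A, -0.57 for H2B, -0.37 for H3 and -0.50 for H4. In replicate 2, 8 of 9 H2B genes were below the WT mean but 6 of 7 H2A, 5 of 6 H3 and 5 of 5 H4 genes were above it, with medians of 0.41, 0.72 and 0.33. H2AC11, for instance, was at 217 and 249 CPM in WT and at 140 and 293 in the knockdown. H3C13 was at 94.7 and 125 CPM in WT against 69.4 and 161, and H4C3 at 214 and 179 against 138 and 246. H4C2 was at 118 and 142 CPM in WT and at 87.4 and 271 in the knockdown (0.46, FDR 0.488). For each of these genes the knockdown libraries straddled the WT values.

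**Figure D2:**
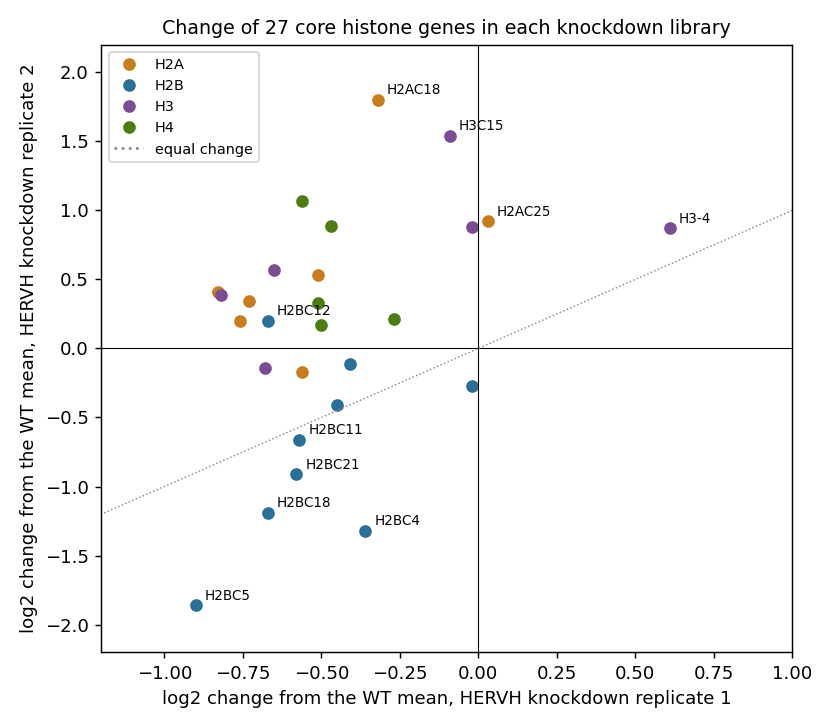
log2 change of 27 core histone genes from the WT mean in HERVH knockdown replicate 1 (x axis) and replicate 2 (y axis), colored by histone type, with a dotted line of equal change. H2B genes lie mostly at the lower left, low in both replicates, while most H2A, H3 and H4 genes lie at the upper left, below the WT mean in replicate 1 and above it in replicate 2.

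H2AC20 was the only member of another type with both knockdown values (119 and 156 CPM) below both WT values (165 and 186), with a log2 fold change of -0.35 (FDR 0.274). H3-4 was the only member with both values above WT, at 1.26 and 1.53 CPM against 0.600 and 1.03 (0.77, FDR 0.439), and it rests on 23 and 21 reads. H2AC18 had the largest fitted increase (1.09, SE 0.456, FDR 0.214): replicate 1 at 6.41 CPM lay below the WT values of 8.5 and 7.62, and replicate 2 was at 28.3 CPM. The next, of H3C15 (0.93, FDR 0.227), came from replicate 2 at 14.2 CPM, while replicate 1 at 4.54 CPM lay within the WT values of 5.31 and 4.40.

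Summed over genes, H2B mRNA was at 1800 and 1650 CPM in WT and at 1150 and 987 in the knockdown, a mean log2 difference of -0.69 (SE 0.13), with both knockdown libraries below WT. H2A sums were 738 and 811 CPM in WT and 503 and 970 in the knockdown. H3 sums were 302 and 307 in WT and 188 and 390 in the knockdown, and H4 sums 728 and 740 against 527 and 991. Of the 4 types, only H2B had a sum that stayed outside the WT range on 1 side. An exact permutation test of 2 against 2 libraries (two-sided) cannot give a p below 0.333, which was the value for H2B, and it was 1 for the H2A, H3 and H4 sums. The H2B share of core histone reads was 48.5% in knockdown replicate 1, within the WT values of 50.4% and 47%, and 29.6% in replicate 2. In these bulk libraries, fewer cells in S phase and less histone mRNA per cell cannot be told apart.

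**Figure D3:**
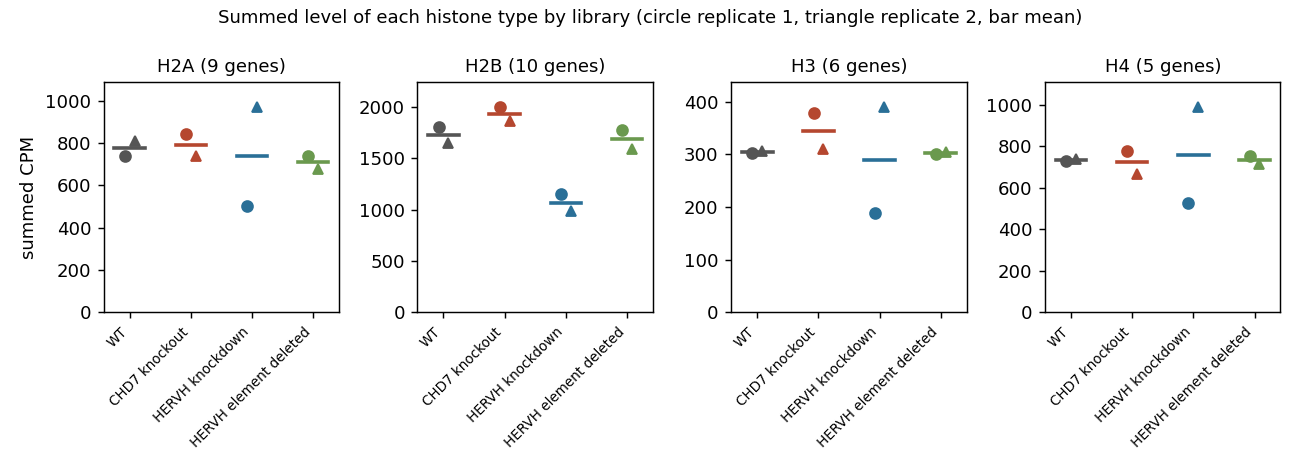
Summed CPM of the H2A, H2B, H3 and H4 members (axes from 0, a separate scale for each type) by library in the 4 groups; circles are replicate 1, triangles replicate 2 and bars the mean. H2B is the type for which both knockdown libraries (1150 and 987 CPM) lie below the other 6, and for H2A, H3 and H4 the knockdown replicates lie on either side of WT.

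Because an H2A and an H2B gene of a pair start from a shared region, their ratio compares the types at matched positions. In WT, log2 of H2B over H2A was 0.88 and 0.96 for H2BC4/H2AC6, 0.26 and 0.04 for H2BC21/H2AC20, 0.12 and -0.20 for H2BC13/H2AC13, -0.29 and -0.15 for H2BC26/H2AC25, and -0.99 and -1.16 for H2BC11/H2AC11. In knockdown replicate 2 the ratio was below both WT values in all 5 pairs: -0.81, -0.59, -0.64, -1.41 and -2.07 in the same order. In replicate 1 it was 1.39, 0.13, 0.27, -0.27 and -0.92, above both WT values in 3 pairs and between them in the other two. Lower H2B relative to the H2A partner was therefore seen in 1 knockdown library and not in the other, and all 5 pairs were classed as overlapping WT. H2B partners had the lower exonic GC content in 4 of the pairs (for example 47.9% in H2BC21 and 58.3% in H2AC20), and in the pair with the widest gap between the knockdown libraries it was the higher one (48.4% in H2BC4, 42.0% in H2AC6).

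**Figure D4:**
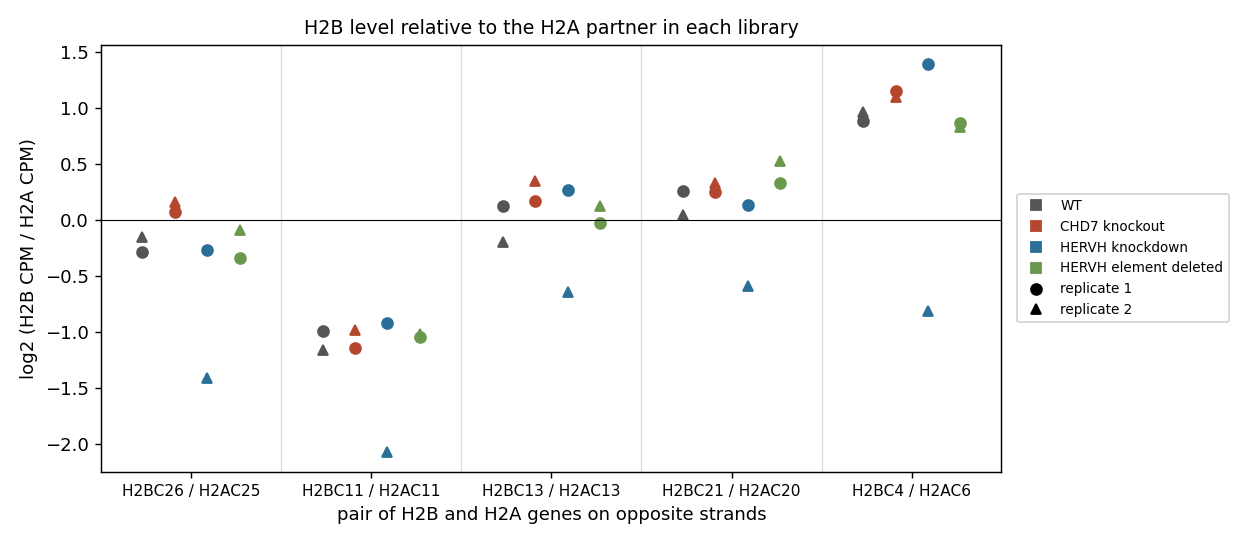
log2 ratio of H2B to H2A CPM in each library for the 5 tested pairs of genes on opposite strands; colors mark the group, circles replicate 1 and triangles replicate 2. The triangle of HERVH knockdown replicate 2 is the lowest point in every pair, from -2.07 for H2BC11/H2AC11 to -0.59 for H2BC21/H2AC20, and the circle of replicate 1 is below both WT points in none of the 5.

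Exonic GC content ranged from 40% to 65.3% among members, and since the knockdown replicates differed along GC, the fit was repeated with an offset for it. The H2B median was then -0.61 with 9 of 9 genes lower, and the median was -0.08 for H2A, 0.03 for H3 and 0.01 for H4. FDRs became 0.0015 for H2BC5, 0.00166 for H2BC18, 0.00301 for H2BC21 and 0.00466 for H2BC11. H2BC4 (0.0315), H2BC13 (0.037) and H2AC20 (0.031) were then also below 0.05, for 7 members lower in all and none higher, where 8.64% of all genes were called, 4.86% lower and 3.78% higher. H2BC5 with a log2 fold change of -1.28 passed the DEG threshold in that fit, as 1.48% of all genes did.

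H2B genes were also the type with the most long annotated ends, so both groupings were examined. Members with an end far past the stem-loop had a median of -0.216 (12 genes; -0.453 and -0.190 in replicates 1 and 2) and those ending at it -0.034 (15 genes; -0.559 and 0.391). With the GC offset the order turned around, with -0.105 for long ends and -0.20 for ends at the stem-loop. Within H2B the medians were -0.734 for 7 genes with long ends and -0.300 for H2BC12 and H2BC13, which end at the stem-loop. The 5 tested genes with long ends that are not H2B had a median of -0.011. Counts per gene do not separate reads on either side of the stem-loop, and whether the decrease concerned the short or the long form was not tested. The ends are those of the lifted GENCODE annotation, which may differ from the Ensembl GRCh37.75 models on which reads were counted.

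In CHD7 knockout cells no core histone gene passed the test, and the fitted changes of members lay apart by chromosome. All 11 tested members on chromosome 1 had higher fitted levels than WT, with a median log2 fold change of 0.555 (1.47-fold), and medians of 0.617 and 0.487 in the replicates. The 16 tested members on chromosomes 6 and 12 had a median of -0.102, and 12 of them had lower fitted levels. No member passed the DEG threshold (0.571% of all genes did) or an FDR below 0.05 (1.81% of all genes, 1.19% higher and 0.613% lower), by edgeR's quasi-likelihood test. At an unadjusted p below 0.05 there were 5, all on chromosome 1, where 10.9% of all genes had such a p. DESeq2, edgeR's exact test and its likelihood-ratio test called no DEG among members, and 2, 1 and 2 members at an FDR below 0.05. The share of all genes called by those tests is not given here.

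All 8 HIST2 members lay above both WT values in both knockout libraries, as did H2BC26 of HIST3 (21.5% of all genes did). H2BC21, the member with the lowest FDR, was at 299 and 275 CPM against 198 and 190 in WT (log2 fold change 0.57, SE 0.150, FDR 0.0837). H2BC18 was at 590 and 537 against 399 and 368 CPM (0.56, SE 0.173, FDR 0.155). H2BC26 gave 96.9 and 80.0 CPM against 42.7 and 65.6 (0.71, SE 0.206, FDR 0.12). H2B genes of chromosome 1 were thus the closest to the threshold. The H2A genes H2AC20 (251 and 219 against 165 and 186 CPM; 0.42, FDR 0.325) and H2AC21 (69.0 and 64.5 against 47.2 and 46.2; 0.52, FDR 0.487) lay apart from WT too, as did the low H2AC18 (15.8 and 13.5 against 8.5 and 7.62 CPM; 0.86, SE 0.453, FDR 0.55). Among H3 genes, H3C13 was at 167 and 137 CPM against 94.7 and 125 (0.47, FDR 0.65) and H3C15 at 9.94 and 7.91 against 5.31 and 4.40 (0.88, SE 0.398, FDR 0.439). H3C14 was at 7.26 and 7.85 CPM, 1.53-fold over WT (0.62, FDR 0.574). H2AC25 (92.2 and 71.6 against 52.2 and 72.6 CPM; 0.39) and H3-4 (0.739 and 1.02 against 0.600 and 1.03 CPM; 0.11) overlapped WT.

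Genes around these clusters had fold changes of like size. Of 60 other protein-coding genes within 2 Mb of HIST2, 58 had higher fitted levels in CHD7 knockout cells, with a median of 0.579, and of 29 around HIST3, 28 did with a median of 0.324. On the rest of the long arm of chromosome 1, 597 of 659 genes had higher fitted levels, with a median of 0.526. The members' median of 0.555 is close to that of the arm on which they lie. Neighbors of HIST1 on chromosome 6 had a median of 0.08 (45 genes) and the rest of the short arm -0.028 (415 genes). The difference of HIST2 and HIST3 members and that of the surrounding genes cannot be told apart in these data.

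**Figure D5:**
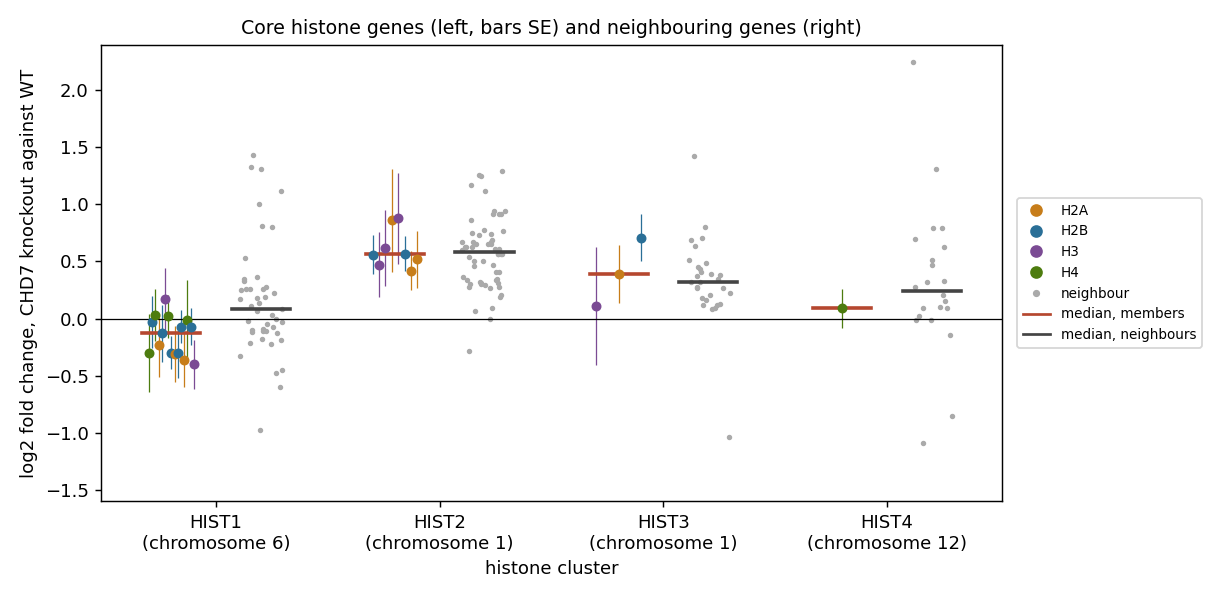
log2 fold change in CHD7 knockout against WT for tested members (left of each cluster, colored by histone type, bars SE) and for other protein-coding genes within 2 Mb (right, gray), with medians as lines. Members and neighbors of HIST2 both center near 0.6 (0.561 and 0.579), those of HIST3 lie at 0.393 and 0.324, and those of HIST1 near 0 (-0.132 and 0.08).

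HIST2 members held a larger part of the reads on the 30 matched core histone genes in CHD7 knockout cells than in WT. Most core histone genes that could not be matched belong to HIST1, so these are not shares of all core histone mRNA. They made up 25.9% and 26.6% of core histone reads in WT, and in CHD7 knockout cells they made up 35.2% and 35.3%, with counting intervals (95%, Wilson) of at most 0.412 percentage points to either side. HIST1 members went from 68.4% and 65.9% to 56.9% and 57.1%. The summed level of HIST2 members was 922 and 932 CPM in WT and 1410 and 1260 in the knockout, a log2 difference of 0.52 (SE 0.08, exact permutation p = 0.333, the smallest possible). HIST1 sums were 2440 and 2310 CPM in WT and 2280 and 2040 in the knockout (-0.14, SE 0.09). The split by histone type overlapped WT for H2A, H2B and H3. The H2A share, for example, was 21.1% and 20.6% against 20.7% and 23.1% in WT.

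Within HIST1, 12 of 15 tested members had lower fitted levels in CHD7 knockout cells, none with a call, and 6 lay below both WT values, where 22.4% of all genes did. These included H2AC13 with 98.9 and 82.8 CPM against 108 and 126 in WT (-0.36, FDR 0.7), H2AC11 with 201 and 174 against 217 and 249 (-0.31, FDR 0.778) and H2BC11 with 91.2 and 87.8 against 109 and 112 (-0.30, FDR 0.473). H2BC12 was at 163 and 137 against 185 and 185 CPM (-0.30, FDR 0.74). H4C2 was at 110 and 100 against 118 and 142 CPM (-0.30, FDR 0.867). H4C16 of HIST4 was at 127 and 118 CPM against 108 and 123. H4C3 and H4C8 overlapped WT with log2 fold changes of 0.03 and 0.02. With an offset for GC content, 7 members, all on chromosome 1, were higher at an FDR below 0.05 and none lower, where 4.38% of all genes were called, 2.8% higher and 1.57% lower: H3C13 (0.00507), H2BC21 (0.0158), H2AC20 (0.0181), H2AC21 (0.0182), H3C15 (0.0234), H2BC26 (0.0327) and H2BC18 (0.0426). None of them was a DEG in that fit (1.29% of all genes were). Without the offset, 7 members had an FDR below 0.05 with only the 4 libraries compared, against 0 in the main fit. The number also rose when either knockdown replicate was left out. For these fits the share of all genes called is not given here, so the numbers have no background to be read against.

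Deletion of the HERVH element left core histone genes close to WT. No member passed the DEG threshold (0.0298% of all genes did) or an FDR below 0.05 (0.0724%) in edgeR's quasi-likelihood test, none had an unadjusted p below 0.05 (2.63% of all genes did), and no member had an FDR below 0.05 by DESeq2, edgeR's exact test or its likelihood-ratio test. With the GC offset there was none either, where 0.0767% of all genes were DEGs and 0.0895% had an FDR below 0.05, all of them lower. Fitted log2 fold changes ranged from -0.25 to 0.34, with 12 members above 0, 15 below and a median of -0.006. H3C12 was the only member above both WT values in both libraries, at 115 and 107 CPM against 105 and 70.3 (0.34, SE 0.215). H2AC20 was at 160 and 135 CPM against 165 and 186 (-0.25, SE 0.168), H3C4 at 84.3 and 85.6 against 91.7 and 101 (-0.18), and H2AC21 at 41.5 and 41.3 against 47.2 and 46.2 (-0.17). These were the largest of 7 members below both WT values, where 20.3% of all genes were. Summed H2B was 1780 and 1590 CPM against 1800 and 1650 in WT. The 4 H2B genes lowered by knockdown had changes of -0.10 (H2BC5), 0.02 (H2BC18), 0.03 (H2BC21) and -0.11 (H2BC11) in the deleted cells, with FDRs of 1. The knockdown and the deletion are compared with the same WT libraries, and the difference between them was not tested.

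Genes that act with core histones gave few calls. None of 15 genes for transcription and 3′ end processing of histone mRNA (such as SLBP, NPAT and CPSF3), 17 histone chaperone genes and 9 replacement histone genes outside the clusters had an FDR below 0.05 in any comparison. In HERVH knockdown cells, 17 of 19 tested genes of G1/S and S phase had higher fitted levels (median 0.178, replicate medians 0.116 and 0.329) and 10 of 15 G2/M genes lower ones (median -0.184, replicate medians 0.008 and -0.292), with no call in either list. All 8 linker histone genes had lower fitted levels in the knockdown (median -0.608, replicate medians -1.391 and -0.009), where H1-3, at 183 and 130 CPM in WT and 39.7 and 89.7 in the knockdown (-1.28, FDR 0.0357), passed an FDR of 0.05. H1-1, a linker histone gene inside HIST1, was at 81 and 84.4 CPM in WT but at 1.43 and 1.18 CPM in the CHD7 knockout, and passed the DEG threshold (-5.97, SE 0.256, FDR 5.64e-08), while no core histone member of HIST1 did. Of the RNAs without a poly(A) tail, 3 could be tested, and their median was 0.192 in the knockdown, with -0.115 and 0.722 in the replicates, and 0.322 in the CHD7 knockout, where TERC, the telomerase RNA, was higher (1.06, FDR 0.0217).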

How the data were processed

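RNA was rRNA-depleted and made into strand-specific libraries. According to the methods and labels, the authors mapped reads to hg19 with STAR (Ensembl GRCh37.75) and counted them with HTSeq; versions are not given in the sources used here. The deposited files hold raw read counts per gene ID, 1 file for each of 8 libraries, with 14802049 to 23156445 reads on genes. HTSeq's summary lines were left out (34.9% to 42.5% of reads on no feature, 3.81% to 4.75% ambiguous), and reads listed as not unique were assigned to no gene.

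IDs were named through GENCODE lifted to GRCh37 (96.1% of 57773 genes). Members and lists were chosen with earlier results of these data known. Counts were fitted in 1 model over 8 libraries with edgeR 4.0.16 (R 4.3.3): filterByExpr (23474 genes kept), TMM scaling, group as the only term, 4 residual degrees of freedom, quasi-likelihood tests against WT, Benjamini-Hochberg FDR. DEGs had an FDR below 0.01 and at least 2-fold change. An FDR below 0.05 was a looser call. CPM and RPKM were computed here; log2 CPM used a prior count of 2. Exact permutation tests and Wilson intervals used SciPy 1.17.1; intervals cover counting error only. Scripts were tested on simulated data for the CHD7 knockout comparison. Of 100 simulated 2-fold changes, 19 passed the DEG threshold and 41 an FDR below 0.05. Of 100 simulated 4-fold changes, 87 and 89 did. An absent call therefore does not show that a 2-fold change was absent. DESeq2 1.42.0 was an alternative.

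Genes named were, in each type, the 5 highest in WT, every member below an FDR of 0.05, the 3 largest changes in each direction outside the WT values per comparison, near-identical copies, members outside HIST1 and HIST2, testis-type members, CHD7, and list genes past the DEG threshold, of which 1 is not reported here. Other H2B genes, chromosome 1 members, pair partners, H1-3, TERC, FOXA2 and AFP were named after their values were seen.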

Additional observations from a re-analysis of the deposited data

How the results depend on the processing

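No DEG was found among core histone genes in CHD7 knockout or HERVH element deleted cells under any alternative run. Under HERVH knockdown the count of 0 became 1 with DESeq2, edgeR's exact test, the likelihood-ratio test (chosen after seeing the data, as were counts at an FDR below 0.05 under the alternatives and medians by type or chromosome), a GC content offset, the replicate block, and the block with the GC offset, 2 with no expression filter (H2BC5 lower and H2AC18 higher at an FDR of 0.00403), and 4 at an FDR below 0.05 without a fold minimum. It ranged from 0 to 6 when single libraries were left out, with 6 without knockdown replicate 1. Medians over members moved when single libraries were left out, from 0.011 to 0.145 in CHD7 knockout cells (0.145 without CHD7 knockout replicate 2, 0.117 without WT replicate 1), from -0.521 to 0.159 in the knockdown and from -0.066 to 0.004 in HERVH element deleted cells (-0.066 without its replicate 1, -0.056 without WT replicate 1). Where a group kept 1 library, it was assumed to vary like the other groups. The cause was not tested. Among the knockdown DEG counts, the share of all genes called is given above only for the GC content offset and an FDR below 0.05. The other counts, including those with single libraries left out, have no such background to be read against. The FDR below 0.05 count in the CHD7 knockout was 0 in the main fit and 7 with the GC offset. It was 7 with only the 4 libraries and 4 without a filter, where the share of all genes called is not given here.

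Fitted directions reversed for 13 gene values, none with a call in the main fit. With single libraries left out, log2 fold changes in the knockdown ranged from -0.74 to 0.28 for H2AC11, -0.77 to 0.14 for H2AC13, -0.34 to 1.76 for H2AC18, 0.00 to 0.85 for H2AC25, -0.84 to 0.36 for H2AC6, -0.68 to 0.15 for H2BC12, -0.58 to 1.01 for H4C2 and -0.45 to 0.17 for H2BC26, with the ends set by the 2 knockdown libraries except for H2BC26, where WT replicates 1 and 2 set them. Without knockdown replicate 1 H2AC18 was higher at an FDR of 2.94e-05, and without replicate 2 H4C2 was lower at 0.017. With the GC offset H2AC6 was at 0.05. In the CHD7 knockout H3-4 ranged from -0.20 without WT replicate 1 to 0.54 without WT replicate 2, and was -0.11 without knockout replicate 2.

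Replicate numbers are not stated to pair libraries. Deviations of same-numbered libraries correlated at -0.233 between WT and CHD7 knockout, 0.286 between WT and knockdown and 0.427 between WT and HERVH element deleted cells. With the replicate block, H2BC5 passed the DEG threshold in the knockdown at an FDR of 0.00533 and the DEG counts of the other comparisons stayed at 0. Depth limits H3-4, H3C14 and H3C15, at most 215 reads per library, and 2 replicates per group limit all tests.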
